A study of Caenorhabditis elegans with 18 samples.

Results

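The 10 genes described here encode maternal RNA-binding proteins of the *C. elegans* oocyte and early embryo: *gld-1*, *puf-5*, *lin-41*, *oma-1*, *oma-2*, *mex-3*, *mex-5*, *mex-6*, *pos-1* and *spn-4*. They were listed by name, with earlier results of these data known, and all 10 were found among the 29970 genes of the mRNA table. Each also had a locus among the 3608 that make CSR-1 class 22G-RNAs, the antisense small RNAs loaded onto the Argonaute CSR-1, and 0 had a WAGO class locus. The samples were *tcer-1(tm1452)* mutants (strain CF2166), *tcer-1(glm27)* mutants (strain AGP278) and wildtype animals (N2), each with 3 mRNA and 3 small RNA libraries made from whole gravid hermaphrodites grown for 72 h at 20 °C on OP50. Both alleles damage *tcer-1*, which encodes a transcription elongation and splicing factor, *glm27* being a genome-edited deletion of the gene. *tm1452* is an older deletion allele, and the study describes its strain as developing out of step and *glm27* animals as free of that defect. Each mutant group stands for 1 strain, and whole animals hold the soma, the germline, stored sperm and embryos.

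These proteins act on mRNAs that the germline makes long before their products are used. GLD-1, PUF-5, LIN-41, OMA-1 and OMA-2 mainly repress translation of such mRNAs while oocytes form and mature, and MEX-3, MEX-5, MEX-6, POS-1 and SPN-4 act after fertilization, when they limit translation to particular blastomeres or mark maternal proteins for loss. Several of them also bind the mRNAs of others in the group, GLD-1 being the best studied example.

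GLD-1 binds short motifs in the 3′ UTRs of its targets, among them UACUAA. On the transcribed strand, UACUAA lay within the first 200 nt after the stop codon in 5 of the 10 genes, against 4.43% of 19973 genes with such a window. The sites of both *oma* genes, *mex-5*, *mex-6* and *spn-4* are shown, since these mRNAs are both measured here and encode regulators, in the WBcel235 assembly with the motif in capitals and 10 flanking bases on each side. The other strand was not searched.
oma-1: gugucccccaUACUAAcuaauaaugc
oma-2: uuaugucccaUACUAAcuauaauaac
mex-5: uuucauacucUACUAAuuucgaagua
mex-6: aaaaauacuuUACUAAuuuaaaagua
spn-4: auuuuauuucUACUAAcugcguguuu

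The *oma-1* window is chrIV:8890578-8890603 on the plus strand, its motif starting 56 nt after the stop codon. That of *oma-2* is chrV:8030975-8031000 on the plus strand, 65 nt after the stop codon. The *mex-5* window is chrIV:13355692-13355717 (plus strand, 159 nt) and the *mex-6* window is chrII:9526012-9526037 (plus strand, 147 nt). The *spn-4* window is chrV:6783607-6783632 on the minus strand, 31 nt after the stop codon. A second GLD-1 motif, UACUCA, was in the window of 0 of the 10 genes and of 4.15% of all genes. The pattern UGUNNNAU, a loose form of the FBF motif with any base at N, was in 8 of 10, against 38.6% of all genes. All its matches in *oma-1*, *oma-2* and *spn-4* had C at the first N, and a match was not taken as an FBF site. The uridine run UUUUUUU, bound by MEX-5 and MEX-6, was in 2 of 10 (*mex-5* and *mex-6*), against 35.6%. In *oma-2*, 1 UGUNNNAU match shared 1 base with UACUAA. A match describes these letters only, and no binding was measured.

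The targeted gene was checked first. *tcer-1* had 959, 862 and 1026 normalized counts in *tcer-1(tm1452)* replicates 1, 2 and 3, and 529, 496 and 470 in *tcer-1(glm27)* animals, against 5877, 6034 and 6346 in wildtype. A normalized count is a gene's estimated read count scaled between libraries and is not divided by gene length. *tcer-1* mRNA was therefore low in all 6 mutant mRNA libraries, and the 9 mRNA libraries matched their labels as mutant or wildtype. Low *tcer-1* mRNA cannot show which of the alleles a mutant library carries. The small RNA libraries were not checked in this way. In them *tcer-1* 22G-RNAs were at 15.84, 16.26 and 14.97 RPM in *tcer-1(tm1452)* animals and 45.64, 45.02 and 43.63 RPM in *tcer-1(glm27)* animals, against 19.42, 19.63 and 19.45 RPM in wildtype. The *tcer-1(glm27)* libraries thus held some *tcer-1* mRNA, and more *tcer-1* 22G-RNAs than wildtype, though the study describes a deletion of the whole gene. The source of these reads was not tested. Replicate 3 of *tcer-1(tm1452)* stood apart among the small RNA libraries, with a correlation of log2 values over all tested features (Pearson's r, across features) of 0.936 and 0.941 with the other libraries of its group, where all other pairs of a group were at 0.992 to 0.996. The libraries summed to between 22491326 and 23721969 normalized counts for mRNA and between 638133 and 660976 RPM (reads scaled to a fixed library total) for small RNAs, and the size of the smallest steps put their depth at about 18000000 to 27820000 reads for mRNA and 12920000 to 16040000 reads for small RNAs.

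The mRNAs of all 10 genes fell in both mutants. In *tcer-1(tm1452)* animals the fold changes lay between −1.05 and −0.63 on the log2 scale with a median of −0.73, and in *tcer-1(glm27)* animals between −1.05 and −0.62 with a median of −0.75. Calls used limma on log2(normalized count + 1) with Benjamini-Hochberg adjusted p under 0.05 over 17037 mRNAs. At that rule 34.1% of all mRNAs were lower in *tcer-1(tm1452)* animals and 27.5% in *tcer-1(glm27)* animals, while 35.3% and 33.2% were higher, with all-gene medians of 0.02 and 0.13. Among the mRNAs of CSR-1 class genes, which are mostly germline genes, 72.3% and 78.2% of 3593 were lower and 7.51% and 4.76% higher, with medians of −0.31 and −0.35. The count of 10 of 10 therefore stands beside a class in which most members fell. How many other mRNAs had mutant and wildtype libraries without overlap was not counted. In size of change, between 1.95% and 10.8% of CSR-1 class mRNAs had a lower fold change than a gene of the 10, depending on the gene, in *tcer-1(tm1452)* animals, and between 0.919% and 9.71% in *tcer-1(glm27)* animals. Both mutants were set against the same 3 wildtype libraries, so the 2 comparisons are not independent. In whole animals, fewer cells of a type and less RNA per cell cannot be told apart.

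**Figure D1:**
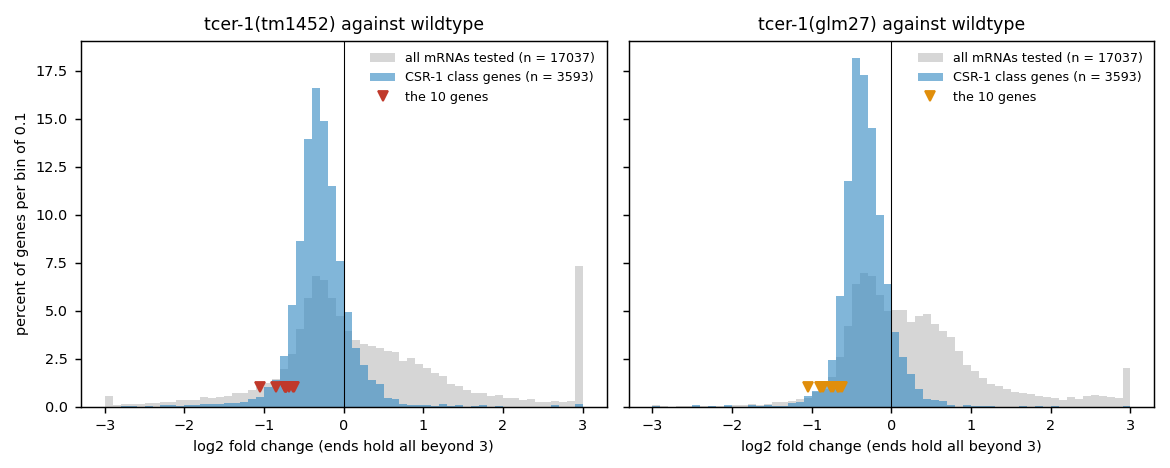
Histograms of mRNA log2 fold change (x axis) as a percent of genes per bin (y axis) in *tcer-1(tm1452)* and *tcer-1(glm27)* animals against wildtype, for all 17037 mRNAs tested (grey) and 3593 CSR-1 class genes (blue). Triangles mark the 10 genes, all on the lower side of the CSR-1 class medians of −0.31 and −0.35.

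*gld-1* encodes a KH domain protein that represses translation in the meiotic germline and is needed for oocyte development. Its mRNA had 7406, 7997 and 7517 normalized counts in *tcer-1(tm1452)* animals and 7898, 7367 and 7084 in *tcer-1(glm27)* animals, against 12331, 11827 and 11273 in wildtype. The mutant libraries did not overlap with wildtype. The change was −0.63 ± 0.05 on the log2 scale for *tcer-1(tm1452)* (SE; limma adjusted p = 1.44e-07) and, in the *tcer-1(glm27)* libraries, −0.67 ± 0.05 (limma adjusted p = 1.68e-07). *gld-1* lies on chromosome I (7695681 to 7698222, plus strand) and has 8 exons.

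*puf-5* (chromosome II, 8575541 to 8577787, 5 exons) encodes a PUF family repressor of late oogenesis. It had 16047, 18016 and 16363 normalized counts in *tcer-1(tm1452)* animals and 18393, 16735 and 17322 in *tcer-1(glm27)* animals, against 25805, 27753 and 27300 in wildtype. Every mutant library was below every wildtype library, and relative to wildtype the mean fell by 37.6% in *tcer-1(tm1452)* animals, and in *tcer-1(glm27)* animals it fell by 35.1%. These were changes of −0.68 ± 0.06 and −0.62 ± 0.06 on the log2 scale (SE; limma adjusted p = 1.15e-07 and 5.37e-07).

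*lin-41* (chromosome I, 9334800 to 9342496, minus strand) encodes a TRIM-NHL protein that holds oocytes back from early maturation and from leaving meiosis. Its mRNA had 3588, 4037 and 3882 normalized counts in *tcer-1(tm1452)* animals, 3675, 3396 and 3318 in *tcer-1(glm27)* animals and 6668, 6334 and 6115 in wildtype. Both mutants were below wildtype without overlap, with log2 fold changes of −0.73 ± 0.06 (limma adjusted p = 4.83e-08) and −0.88 ± 0.06 (limma adjusted p = 1.91e-08).

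*oma-1* and *oma-2* encode CCCH zinc finger proteins that act redundantly in oocyte maturation. *oma-1* had 2674, 2993 and 2580 normalized counts in *tcer-1(tm1452)* animals and 2908, 2500 and 2532 in *tcer-1(glm27)* animals, against 5293, 4914 and 4619 in wildtype. *oma-2* had 5001, 5149 and 4852 normalized counts in *tcer-1(tm1452)* animals and 5394, 4700 and 4686 in *tcer-1(glm27)* animals, against 8433, 8444 and 8079 in wildtype. Neither gene's mutant values reached its wildtype values. The log2 fold changes of *oma-1* were −0.85 ± 0.07 in *tcer-1(tm1452)* animals and −0.90 ± 0.07 in *tcer-1(glm27)* animals (limma adjusted p = 1.15e-07 and 1.32e-07). Those of *oma-2* were −0.73 ± 0.06 and −0.76 ± 0.06 (limma adjusted p = 4.04e-08 and 6.85e-08).

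*mex-3* (chromosome I, 127285 to 134270, 8 exons in the longest transcript) encodes a KH domain protein that represses *pal-1* mRNA, which encodes a Caudal-like homeodomain protein, in the embryo. It had 6468, 6605 and 6464 normalized counts in *tcer-1(tm1452)* animals and 6400, 5757 and 5607 in *tcer-1(glm27)* animals, against 10168, 11082 and 10986 in wildtype. The mutants did not overlap with wildtype and changed by −0.72 ± 0.06 and −0.86 ± 0.06 on the log2 scale (limma adjusted p = 3.93e-08 and 1.7e-08).

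MEX-5 and MEX-6 are closely related CCCH zinc finger proteins that set up the anterior to posterior polarity of the zygote's cytoplasm. *mex-5* had 7315, 7837 and 7140 normalized counts in *tcer-1(tm1452)* animals and 7780, 7277 and 7099 in *tcer-1(glm27)* animals, against 12132, 11655 and 10992 in wildtype. *mex-6* had 4135, 4193 and 4139 normalized counts in *tcer-1(tm1452)* animals and 4535, 3875 and 4095 in *tcer-1(glm27)* animals, against 9513, 8293 and 8129 in wildtype. *mex-6* means fell by 51.9% and 51.8% relative to wildtype, and it was the 1 gene of the 10 to change by at least 2-fold. That size of fall was reached by 7.51% of all mRNAs and 2.23% of CSR-1 class mRNAs in *tcer-1(tm1452)* animals and by 2.07% and 1.31% in *tcer-1(glm27)* animals. The log2 fold changes of *mex-6* were −1.05 ± 0.07 in both mutants (limma adjusted p = 4.45e-09 and 1.35e-08), and those of *mex-5* were −0.64 ± 0.06 and −0.65 ± 0.06 (limma adjusted p = 1.29e-07 and 2.32e-07).

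*pos-1* (chromosome V, 8414086 to 8415254, 2 exons) encodes a CCCH zinc finger protein needed for posterior cell fates. It had 11486, 11642 and 10881 normalized counts in *tcer-1(tm1452)* animals and 12755, 11285 and 11480 in *tcer-1(glm27)* animals, against 18374, 19166 and 18815 in wildtype. All mutant values were below wildtype, at −0.73 ± 0.05 and −0.67 ± 0.05 on the log2 scale (limma adjusted p = 2.77e-08 and 1.54e-07).

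*spn-4* encodes an RNA recognition motif protein that acts in early blastomere fate and spindle orientation. It had 12691, 13600 and 12651 normalized counts in *tcer-1(tm1452)* animals and 13508, 12404 and 12659 in *tcer-1(glm27)* animals, against 21212, 21631 and 21468 in wildtype. The mutants again lay apart from wildtype, by −0.72 ± 0.05 and −0.74 ± 0.05 on the log2 scale (limma adjusted p = 1.28e-08 and 2.76e-08). *spn-4* overlaps the gene ZC404.15 on the opposite strand, and whether reads were counted by strand was not given in the sources used here.

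**Figure D2:**
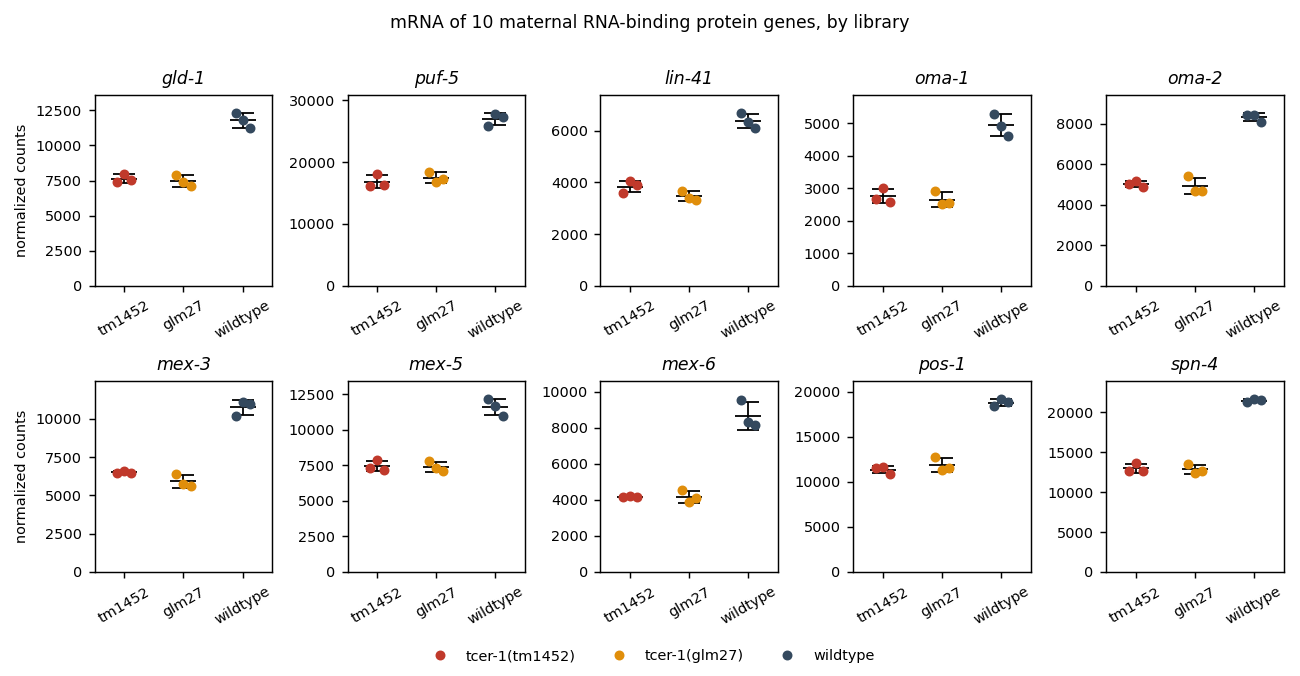
Normalized counts (y axis) of each of the 10 mRNAs in the 3 libraries (points) of *tcer-1(tm1452)*, *tcer-1(glm27)* and wildtype, with the mean and SD (bars). For every gene the 6 mutant libraries lie below the 3 wildtype libraries. By limma (adjusted p under 0.05), 22.7% of all mRNAs and 66.7% of CSR-1 class mRNAs were lower in both mutants, and the share without overlap was not counted.

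Relative to the CSR-1 class as a whole the 10 mRNAs were still lower. When libraries were scaled to an equal median log2 level of CSR-1 class mRNAs, all 10 passed the test in both mutants, with log2 fold changes between −0.73 and −0.31 in *tcer-1(tm1452)* animals and between −0.69 and −0.27 in *tcer-1(glm27)* animals. That scaling put the median of all genes at 0.33 in *tcer-1(tm1452)* animals and 0.48 in *tcer-1(glm27)* animals. Under it 11222 and 10598 of 17059 mRNAs passed the test in either direction. The share of CSR-1 class mRNAs called lower was not counted at this scaling, and the oocyte markers described below were not set beside the 10 genes there. The 10 mRNAs together held 0.704%, 0.729% and 0.689% of the normalized counts of CSR-1 class genes in *tcer-1(tm1452)* animals and 0.765%, 0.730% and 0.736% in *tcer-1(glm27)* animals, against 1.01%, 0.992% and 0.960% in wildtype. The share was lower in every mutant library than in every wildtype library.

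Levels between genes were compared per kilobase of the longest annotated transcript. In *tcer-1(tm1452)* animals, *pos-1* was highest at 10149 ± 360 normalized counts per kb (SD, n = 3) and *lin-41* lowest at 799.8 ± 47.6. In wildtype the order was *pos-1*, *spn-4*, *puf-5*, *mex-5*, *oma-2*, *gld-1*, *mex-3*, *mex-6*, *oma-1* and *lin-41*, with *pos-1* at 16818 and *lin-41* at 1329 normalized counts per kb. Wildtype libraries of *oma-2*, *gld-1* and *mex-3* overlapped with those of the next gene in that order, and the other neighbours did not overlap. The ends of the order were the same in all 3 genotypes, while *gld-1* ranked above *oma-2* in both mutants and *puf-5* above *spn-4* in *tcer-1(glm27)* animals. In *tcer-1(glm27)* animals the libraries of both these pairs overlapped. Those of *gld-1* and *oma-2* were barely apart in *tcer-1(tm1452)* animals, with the lowest of *gld-1* at 3338 and the highest of *oma-2* at 3331.

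The ratio between paralogues within a library differed for the MEX pair. *mex-5* over *mex-6* was 1.77, 1.87 and 1.72 in *tcer-1(tm1452)* animals and 1.72, 1.88 and 1.73 in *tcer-1(glm27)* animals, against 1.28, 1.41 and 1.35 in wildtype. Every mutant library was above every wildtype library, by 0.41 and 0.40 on the log2 scale (exact two-sided permutation p = 0.1 for each, the smallest that 3 against 3 libraries can give). *oma-1* over *oma-2* was 0.535, 0.581 and 0.532 in *tcer-1(tm1452)* animals and 0.539, 0.532 and 0.540 in *tcer-1(glm27)* animals, against 0.628, 0.582 and 0.572 in wildtype. Here the log2 difference was −0.11 in *tcer-1(tm1452)* animals, where the groups overlapped (exact permutation p = 0.2), and −0.14 in *tcer-1(glm27)* animals, where they did not (exact permutation p = 0.1). Leaving out 1 library gave −0.15 to −0.07 in *tcer-1(tm1452)* animals, the value nearest 0 being that without wildtype replicate 1, and −0.17 to −0.10 in *tcer-1(glm27)* animals. Of the exonic 22-mers of *mex-5* and *mex-6*, 1.12% and 1.26% occurred elsewhere in the genome, and 0% of their 50-mers did.

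Between the alleles the 10 mRNAs differed little. The log2 difference of *tcer-1(tm1452)* from *tcer-1(glm27)* ranged from −0.06 to 0.15 with standard errors of 0.05 to 0.07. *lin-41* alone passed the test, at 0.15 ± 0.06 (limma adjusted p = 0.0487), where 27.3% of all mRNAs were higher and 19.8% lower in *tcer-1(tm1452)* animals. Its libraries overlapped between the alleles and the call was kept under 5 of 19 alternatives. *mex-3* was at 0.14 ± 0.06 (limma adjusted p = 0.0524), and its 3 *tcer-1(tm1452)* libraries were all above its 3 *tcer-1(glm27)* libraries. Without *tcer-1(glm27)* replicate 1 it was at 0.20 (limma adjusted p = 0.00471).

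The 22G-RNAs of these genes also fell at most loci, with 1 exception. 22G-RNAs are made on mRNA templates by RNA-dependent RNA polymerases, and those bound by CSR-1 are associated with expressed germline genes. With a filter of a mean of 2 RPM, 9 of the 10 loci were tested. In *tcer-1(tm1452)* animals, 6 fell and 1 rose, and in *tcer-1(glm27)* animals, 8 fell. Among all CSR-1 class loci, 47.1% fell and 3.14% rose in *tcer-1(tm1452)* animals, and 57% fell and 2.89% rose in *tcer-1(glm27)* animals. Over all 7376 small RNA features the shares were 42.2% and 10.2% in *tcer-1(tm1452)* animals, and 44.3% and 7.5% in *tcer-1(glm27)* animals. The share of features whose mutant and wildtype libraries did not overlap was not counted. The median log2 fold change of the 9 loci was −0.55 and −0.67, against −0.28 and −0.36 for CSR-1 class loci. Without *tcer-1(tm1452)* replicate 3, the small RNA library that stood apart, 6 loci fell and 1 rose in *tcer-1(tm1452)* animals, 9 fell in *tcer-1(glm27)* animals, and the alleles differed at 3 loci in place of 2. The features called over all small RNAs in *tcer-1(tm1452)* animals were then 4742 in place of 3861.

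*puf-5* was the exception. It had 57.42, 57.21 and 73.71 RPM in *tcer-1(tm1452)* animals and 39.07, 37.05 and 32.87 RPM in *tcer-1(glm27)* animals, against 44.41, 46.17 and 44.57 RPM in wildtype. The 3 groups did not overlap, with *tcer-1(tm1452)* above and *tcer-1(glm27)* below wildtype. *puf-5* 22G-RNAs changed by 0.46 ± 0.11 (log2) in *tcer-1(tm1452)* animals (limma adjusted p = 0.00679). In *tcer-1(glm27)* animals the change was −0.31 ± 0.11 (limma adjusted p = 0.0387). Between the alleles the difference was 0.77 ± 0.11 (limma adjusted p = 0.000772), in a comparison where 10.8% of CSR-1 class loci were higher and 4.19% lower in *tcer-1(tm1452)* animals (16.3% and 10.3% of all features). *puf-5* mRNA, by contrast, was lower in both mutants, and its log2 difference between the alleles was −0.06 ± 0.06 (limma adjusted p = 0.444). Replicate 3 of *tcer-1(tm1452)*, which stood apart over all features, was the highest library, and without it the rise was 0.34 ± 0.07 (limma adjusted p = 0.00132). With libraries scaled to equal miRNA totals it was 0.08 (limma adjusted p = 0.658), a scaling that puts the median of all small RNA features at −0.69 in place of −0.33. The difference between the alleles passed under all 20 alternatives, between 0.65 and 0.83. The fall in *tcer-1(glm27)* animals missed the threshold without wildtype replicate 1, 2 or 3 or *tcer-1(glm27)* replicate 2 or 3 (limma adjusted p = 0.0809, 0.106, 0.0843, 0.0728 and 0.134), with the replicate number as a block (0.0814), with no filter (0.0684), with equal totals (0.0594) and with no variance trend (0.0516), and was at 0.07 and 0.01 when scaled to equal upper quartiles or CSR-1 class totals.

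*puf-5* also held the largest share of the 10 genes' 22G-RNAs, with 46.3%, 45.8% and 49.8% in *tcer-1(tm1452)* animals and 37.8%, 36.0% and 37.6% in *tcer-1(glm27)* animals, against 30.7%, 29.5% and 30.2% in wildtype. The 10 genes summed to 124.0, 125.0 and 148.0 RPM in *tcer-1(tm1452)* animals and 103.4, 102.9 and 87.3 RPM in *tcer-1(glm27)* animals, against 144.6, 156.4 and 147.4 RPM in wildtype. The full sum overlapped with wildtype in *tcer-1(tm1452)* animals and was below it in *tcer-1(glm27)* animals. As a share of all CSR-1 class 22G-RNAs it was 0.264% in *tcer-1(tm1452)* animals, which overlapped with wildtype, and 0.203% in *tcer-1(glm27)* animals, which did not, against 0.248% in wildtype (means of 3 libraries). Without *puf-5*, a locus left out after its values were seen, the genes summed to 66.6, 67.8 and 74.3 RPM in *tcer-1(tm1452)* animals and 64.3, 65.8 and 54.5 RPM in *tcer-1(glm27)* animals, against 100.2, 110.2 and 102.9 RPM in wildtype. The sum without *puf-5* was lower in every mutant library, with means at 0.666 and 0.589 of wildtype in *tcer-1(tm1452)* and *tcer-1(glm27)* animals. The sum of all CSR-1 class loci was also lower in every mutant library, at 0.83 and 0.80 of wildtype. Per kb of transcript *puf-5* also had the highest level, with 30.3 RPM per kb in *tcer-1(tm1452)* animals and 17.6 in *tcer-1(glm27)* animals, against 21.8 in wildtype, where *gld-1* followed at 10.96 and *oma-1* was lowest.

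The loci of *oma-2*, *mex-6* and *lin-41* fell in both mutants under every alternative in which they were tested. *oma-2* had 3.69, 3.57 and 2.99 RPM in *tcer-1(tm1452)* animals and 2.48, 2.88 and 2.64 RPM in *tcer-1(glm27)* animals, against 7.71, 7.22 and 6.26 RPM in wildtype. *mex-6* had 9.80, 8.76 and 9.35 RPM in *tcer-1(tm1452)* animals and 8.08, 9.47 and 7.10 RPM in *tcer-1(glm27)* animals, against 17.78, 21.45 and 16.92 RPM in wildtype. Neither locus overlapped between a mutant and wildtype. Their log2 fold changes were −0.87 ± 0.12 and −1.13 ± 0.12 for *oma-2* (limma adjusted p = 0.000356 and 7.61e-05) and −0.93 ± 0.12 and −1.10 ± 0.12 for *mex-6* (limma adjusted p = 0.000296 and 0.000117). *lin-41* had 4.91, 6.47 and 5.74 RPM in *tcer-1(tm1452)* animals and 5.81, 5.70 and 5.07 RPM in *tcer-1(glm27)* animals, against 9.20, 10.83 and 9.82 RPM in wildtype, and changed by −0.71 ± 0.11 and −0.75 ± 0.11 (limma adjusted p = 0.000939 and 0.000693).

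*spn-4* had 7.99, 8.96 and 10.60 RPM in *tcer-1(tm1452)* animals and 5.80, 6.78 and 6.02 RPM in *tcer-1(glm27)* animals, against 12.87, 15.20 and 16.84 RPM in wildtype. The 3 groups did not overlap, and the mutants differed from wildtype by −0.65 ± 0.13 and −1.14 ± 0.13 on the log2 scale (limma adjusted p = 0.00315 and 0.000131). The difference between the alleles was 0.49 ± 0.13 (limma adjusted p = 0.0221), and it missed the threshold without *tcer-1(glm27)* replicate 1 or 3 or *tcer-1(tm1452)* replicate 2 (limma adjusted p = 0.078, 0.0682 and 0.0516).

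The other 4 tested loci were *mex-3*, *mex-5*, *gld-1* and *pos-1*. *mex-3* had 5.18, 5.46 and 6.87 RPM in *tcer-1(tm1452)* animals and 6.60, 5.12 and 4.26 RPM in *tcer-1(glm27)* animals, against 8.35, 8.68 and 9.81 RPM in wildtype, and fell in both (limma adjusted p = 0.018 and 0.00675). *mex-5* had 8.66, 7.88 and 10.29 RPM in *tcer-1(tm1452)* animals and 10.48, 10.18 and 9.67 RPM in *tcer-1(glm27)* animals, against 13.12, 14.51 and 10.66 RPM in wildtype. It passed the test in *tcer-1(tm1452)* animals at −0.47 ± 0.13 (limma adjusted p = 0.0152) but not in *tcer-1(glm27)* animals, at −0.30 ± 0.13 (limma adjusted p = 0.0815). *gld-1* had 20.68, 19.27 and 21.39 RPM in *tcer-1(tm1452)* animals and 19.96, 20.54 and 14.95 RPM in *tcer-1(glm27)* animals, against 23.76, 25.13 and 24.10 RPM in wildtype. *pos-1* had 4.10, 5.39 and 4.93 RPM in *tcer-1(tm1452)* animals and 3.48, 3.97 and 3.25 RPM in *tcer-1(glm27)* animals, against 5.16, 5.00 and 5.87 RPM in wildtype. Of these loci *pos-1* alone overlapped with wildtype, in *tcer-1(tm1452)* animals, and the share of all CSR-1 class loci without overlap was not counted. *gld-1* and *pos-1* passed the test in *tcer-1(glm27)* animals, at −0.39 ± 0.11 and −0.47 ± 0.12 (limma adjusted p = 0.0187 and 0.0109). In *tcer-1(tm1452)* animals they were at −0.24 ± 0.11 and −0.13 ± 0.12 (limma adjusted p = 0.105 and 0.379). For *mex-5*, *gld-1* and *pos-1* the difference between the alleles did not pass the test (limma adjusted p = 0.371, 0.364 and 0.0743). Some calls turned on 1 library. In *tcer-1(tm1452)* animals that of *mex-3* was lost without wildtype replicate 3 or *tcer-1(tm1452)* replicate 1 or 2 (limma adjusted p = 0.0662, 0.0559 and 0.053), and that of *mex-5* without wildtype replicate 1 or 2 or *tcer-1(tm1452)* replicate 2 (limma adjusted p = 0.0517, 0.0587 and 0.051). The call of *gld-1* in *tcer-1(glm27)* animals was lost without wildtype replicate 2 (limma adjusted p = 0.062), while *mex-5* passed there without wildtype replicate 3 or *tcer-1(tm1452)* replicate 3 (limma adjusted p = 0.0263 and 0.0289). *gld-1* passed in *tcer-1(tm1452)* animals without *tcer-1(glm27)* replicate 3 (limma adjusted p = 0.0144), and the *pos-1* difference between the alleles passed without *tcer-1(tm1452)* replicate 1 (limma adjusted p = 0.0427).

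The scaling also decided some 22G-RNA calls. With equal CSR-1 class totals *mex-3* missed the threshold in both mutants, at −0.31 and −0.39 (limma adjusted p = 0.103 and 0.0502), as did *mex-5* in *tcer-1(tm1452)* animals, at −0.22 (limma adjusted p = 0.159). The same scaling left *pos-1* at −0.21 and *gld-1* at −0.08 in *tcer-1(glm27)* animals (limma adjusted p = 0.184 and 0.521). With equal upper quartiles *mex-3*, *mex-5* and *spn-4* missed it in *tcer-1(tm1452)* animals, at −0.26, −0.17 and −0.35 (limma adjusted p = 0.21, 0.339 and 0.0664). With the same scaling *mex-3*, *pos-1* and *gld-1* were at −0.33, −0.16 and −0.02 in *tcer-1(glm27)* animals (limma adjusted p = 0.134, 0.383 and 0.919). With equal miRNA totals *pos-1* and *gld-1* passed in *tcer-1(tm1452)* animals (limma adjusted p = 0.0209 and 0.00468) and *mex-5* passed in *tcer-1(glm27)* animals (limma adjusted p = 0.00455).

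The *oma-1* locus was below the filter. It had 1.58, 2.02 and 2.12 RPM in *tcer-1(tm1452)* animals and 1.62, 1.18 and 1.49 RPM in *tcer-1(glm27)* animals, against 2.26, 2.19 and 2.59 RPM in wildtype, the mutant values being below wildtype without overlap. *oma-1* was also listed among ALG class 26G loci, at 0.07, 0 and 0.12 RPM in *tcer-1(tm1452)* animals and at 0 in the other 6 libraries, which amounts to a few reads. A further entry of *oma-1*, in the class named ALG target 22G, had the same values as its CSR-1 class locus in every library.

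**Figure D3:**
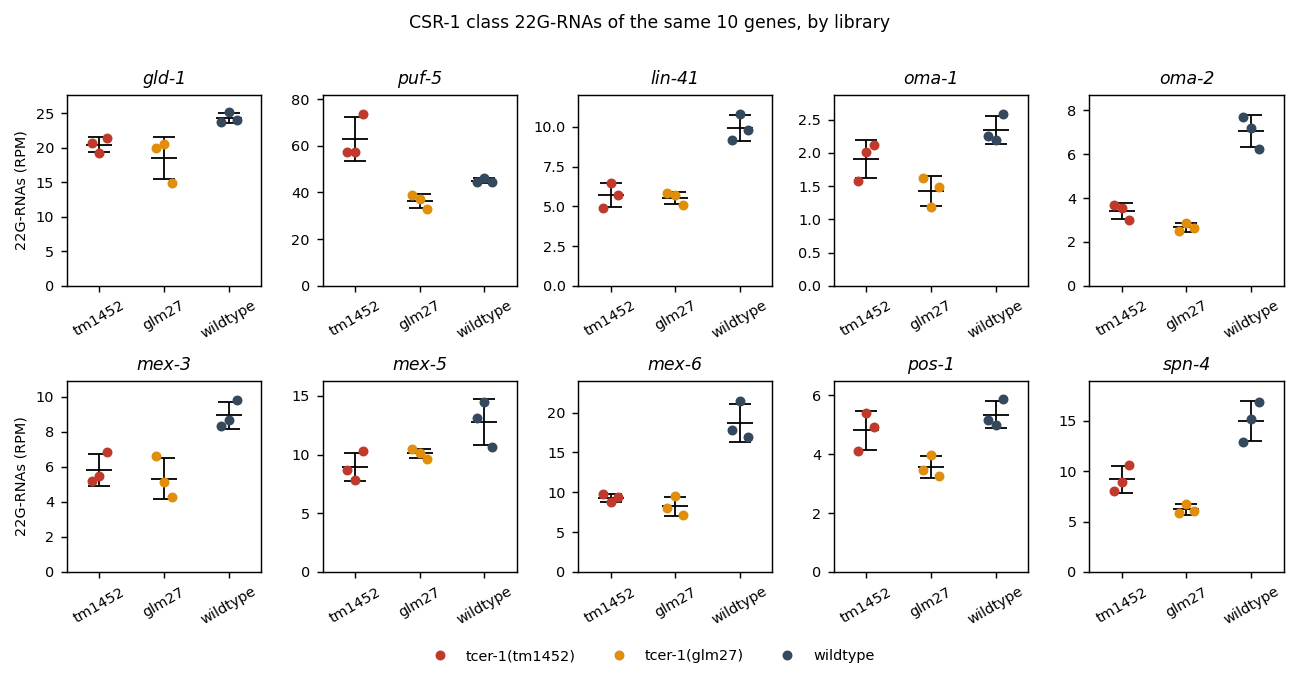
CSR-1 class 22G-RNAs in RPM (y axis) of each of the 10 genes in the 3 libraries (points) of *tcer-1(tm1452)*, *tcer-1(glm27)* and wildtype, with the mean and SD (bars). *puf-5* is the 1 locus where the *tcer-1(tm1452)* libraries (57.21 to 73.71 RPM) lie above wildtype (44.41 to 46.17 RPM).

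**Figure D4:**
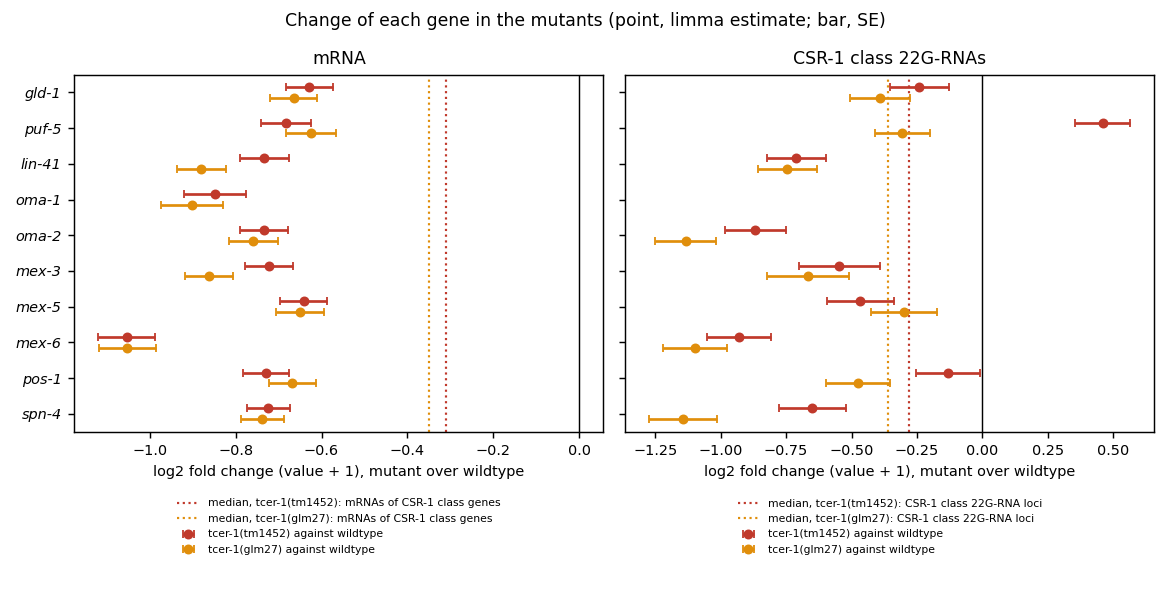
Log2 fold change of each gene (points, with SE bars) in *tcer-1(tm1452)* and *tcer-1(glm27)* animals against wildtype, for mRNA (left) and CSR-1 class 22G-RNAs (right, without *oma-1*), with dotted lines at the medians of the CSR-1 class. All mRNA points lie below 0, and *puf-5* in *tcer-1(tm1452)* animals is the 22G-RNA point above 0, at 0.46.

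Other genes of the same biology were taken from lists. Some lists, including those of cell markers, shared genes and are not separate sets. Shared genes were *zif-1*, *rme-2*, *glp-1*, *nos-2*, *puf-3*, *puf-11*, *fbf-1* and *fbf-2*. Of 32 other germline RNA regulators, 27 mRNAs fell in both mutants and 1 rose, with medians of −0.46 in *tcer-1(tm1452)* animals and −0.59 in *tcer-1(glm27)* animals. *cgh-1*, which encodes a DEAD-box helicase of germ granules, had 7613, 8283 and 8084 normalized counts in *tcer-1(tm1452)* animals and 7925, 7317 and 7175 in *tcer-1(glm27)* animals, against 14597, 14514 and 13754 in wildtype. *gld-4*, which encodes a cytoplasmic poly(A) polymerase, changed by −0.87 ± 0.08 and −1.07 ± 0.08 on the log2 scale (limma adjusted p = 3e-07 and 7.75e-08). The 1 that rose, *cpb-2*, encodes a CPEB family protein, and had 142.5, 174.9 and 161.9 normalized counts in *tcer-1(tm1452)* animals and 44.9, 50.4 and 41.4 in *tcer-1(glm27)* animals, against 10.8, 16.6 and 15.3 in wildtype.

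Of 18 known target mRNAs of these proteins 17 were tested, and 14 fell in both mutants and 1 rose, with medians of −0.50 and −0.42. *zif-1*, whose mRNA is held silent by OMA-1 and OMA-2 among others and whose product marks maternal proteins for degradation, changed by −0.94 ± 0.06 and −0.60 ± 0.06 (limma adjusted p = 5.47e-09 and 1.05e-06). *rme-2*, a GLD-1 target that encodes the yolk receptor, changed by −0.70 ± 0.06 and −0.69 ± 0.06 (limma adjusted p = 1.41e-07 and 3.06e-07). *pal-1* changed by −0.70 and −0.62 (limma adjusted p = 8.88e-08 and 6.38e-07). A further list of 18 genes held kinases and degradation factors that act on these proteins, and also *taf-4*, which is neither. Of these 18, 15 fell in both mutants and 0 rose by limma, with medians of −0.42 and −0.41. They included *mbk-2*, which encodes the kinase that marks OMA-1 for degradation, at −0.69 and −0.74 (limma adjusted p = 5.98e-08 and 6.68e-08), and *cyb-3*, which encodes a cyclin B, at −0.94 and −0.67 (limma adjusted p = 4.59e-10 and 3.83e-08). For comparison, 22.7% of all mRNAs and 66.7% of CSR-1 class mRNAs were lower in both mutants. CSR-1 class genes were 26 of the 32 regulators, 11 of the 17 tested targets and 13 of the 18 genes of the list with kinases and degradation factors.

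Markers of the cells that whole animals hold moved too. Among all mRNAs, 34.1% fell and 35.3% rose in *tcer-1(tm1452)* animals, and 27.5% fell and 33.2% rose in *tcer-1(glm27)* animals. Oocyte marker mRNAs fell in 10 of 12 cases in both mutants and rose in 1 case in *tcer-1(glm27)* animals. Their median changes were −0.65 in *tcer-1(tm1452)* animals and −0.58 in *tcer-1(glm27)* animals. Their summed level was 235496 to 258432 normalized counts in *tcer-1(tm1452)* animals and 250677 to 271529 in *tcer-1(glm27)* animals, against 363929 to 386280 in wildtype. *chs-1*, which encodes the chitin synthase of the eggshell, changed by −0.70 ± 0.06 in both (limma adjusted p = 6.69e-08 and 1.49e-07). Mitotic and pachytene germline markers fell in 7 of 12 and 9 of 12 cases, with medians of −0.23 and −0.35. Sperm markers rose in 12 of 12 and 9 of 12 cases, and summed to 5496 to 6264 normalized counts in *tcer-1(tm1452)* animals and 1322 to 1565 in *tcer-1(glm27)* animals, against 494.8 to 654.5 in wildtype. *msp-33*, which encodes a major sperm protein, had 861.9, 872.8 and 1008 normalized counts in *tcer-1(tm1452)* animals and 81.8, 106.9 and 73.3 in *tcer-1(glm27)* animals, against 12.1, 13.6 and 12.6 in wildtype. Zygotic embryo markers, 10 of 12 of which were tested, fell in 8 cases in *tcer-1(tm1452)* animals, and summed to 232.9 to 262.1 normalized counts there, against 550.9 to 631.5 in wildtype. In *tcer-1(glm27)* animals 0 of 10 fell and 1 rose by limma, at a sum of 634.8 to 700.6 normalized counts against the same wildtype. Somatic markers rose in 7 of 10 and 9 of 10 cases and fell in 2 and 0. Gonadal sheath and spermatheca markers rose in 5 of 8 and 6 of 8 cases and fell in 1 case in each mutant. The mutant libraries thus held less oocyte and more sperm and somatic marker RNA, and in *tcer-1(tm1452)* animals less embryo marker RNA, and the part of this in the fall of the 10 mRNAs was not tested.

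**Figure D5:**
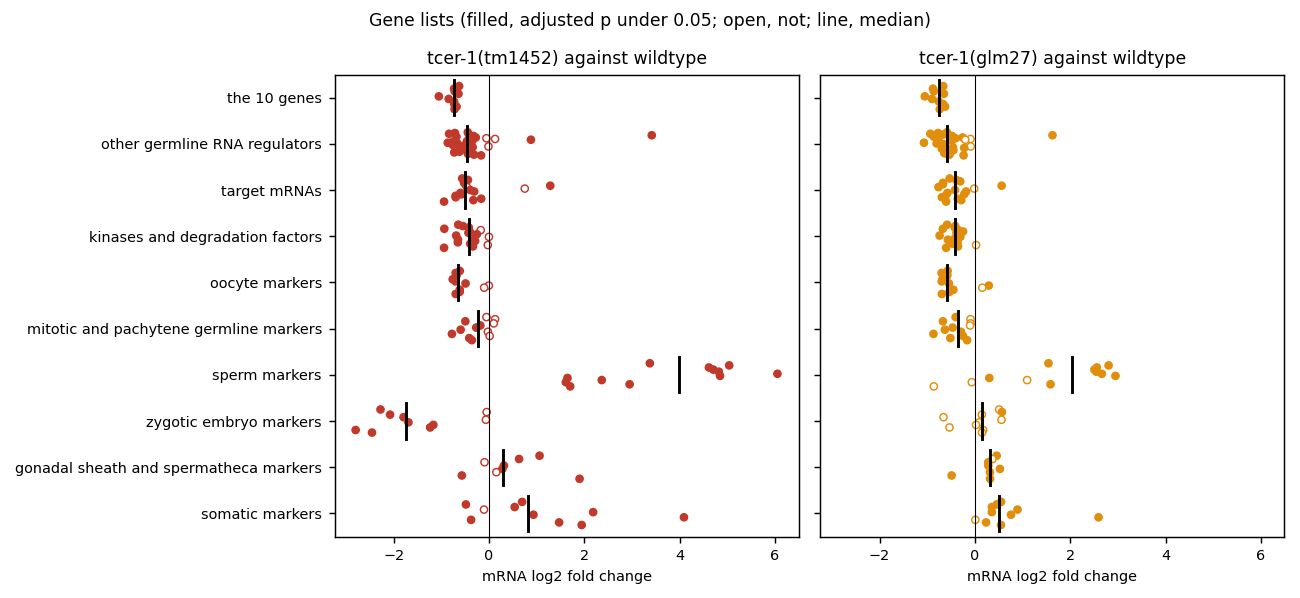
mRNA log2 fold change (x axis) of each tested gene in 10 lists (rows) in *tcer-1(tm1452)* (left) and *tcer-1(glm27)* (right) animals against wildtype, filled where adjusted p is under 0.05, with a line at the median. The 10 genes and the oocyte markers lie mostly between −1 and −0.5, sperm markers rise and zygotic embryo markers fall in *tcer-1(tm1452)* animals.

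Genes of the CSR-1 class with UACUAA in the window after the stop codon had a median mRNA log2 fold change of −0.43 in *tcer-1(tm1452)* animals and −0.43 in *tcer-1(glm27)* animals (131 genes), against −0.31 and −0.35 for those without it (3445 genes). Over all tested genes with the motif (698) the medians were 0.09 and 0.20. For UACUCA, the second GLD-1 motif, the gap was smaller. CSR-1 class genes with it (154) had medians of −0.37 and −0.39, against −0.31 and −0.35 for those without it (3422). These are descriptions, and neither motif was tested as a cause.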

How the data were processed

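mRNA (rRNA-depleted) and small RNA libraries were made from the same genotypes, with 3 replicates each. The authors trimmed mRNA reads with fastp, aligned with STAR, counted with RSEM and divided by DESeq2 size factors, and deposited normalized counts (a signal per gene, not per length). Small RNA values from tinyRNA were deposited by the authors in RPM, a unit read from the values where the planned design had named only normalized values. Low values were whole multiples of 1 read in 27.6% to 70.5% of cases per library within 0.02 of a read for mRNA, and in 89.4% to 92.0% within the rounding to 0.01 RPM for small RNAs, so no count test was run.

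The members and gene lists were chosen with earlier results of these data known, and the motifs were chosen after the tables were opened. limma 3.58.1 (R 4.3.3) was fitted to log2(value + 1) over all 9 libraries of an assay, with a mean of at least 2, a variance trend and Benjamini-Hochberg adjustment. The same procedure was also run on simulated data with a small part of the features lowered and the rest unchanged. That setting lacks the wide shifts seen here, so it gives no error rate for them. Small RNA features were those of 6 classes. Paralogue ratios were tested by exact permutation (scipy 1.17.1). Named list genes were up to 3 per list ranked by the smaller of the changes in both mutants, among those passing both in the same direction. The study calls its replicates biological. limma p-values set a difference between group means against the spread within groups, estimated over the 9 libraries and drawn toward a trend across features. They speak for these libraries, each mutant being 1 strain. Positions are from the Ensembl annotation of WBcel235. Alternatives were other pseudocounts, filters, scalings, fits, a replicate block and leaving out each library.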

Additional observations from a re-analysis of the deposited data

Results flagged for a closer look

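3 results differed between the alleles by the limma test of *tcer-1(tm1452)* against *tcer-1(glm27)* itself. The *puf-5* 22G-RNAs were higher in *tcer-1(tm1452)* animals by 0.77 on the log2 scale, being above wildtype in *tcer-1(tm1452)* and below it in *tcer-1(glm27)*. Against wildtype, the call of the rise was kept under 19 of 20 alternatives and that of the fall under 9 of 20. The *spn-4* 22G-RNAs were higher in *tcer-1(tm1452)* animals by 0.49, being below wildtype in both, and the call was lost on leaving out *tcer-1(glm27)* replicate 1 or 3 or *tcer-1(tm1452)* replicate 2 (adjusted p = 0.078, 0.0682 and 0.0516), or with equal miRNA totals (0.0781). *lin-41* mRNA was likewise higher by 0.15, with a call kept under 5 of 19 alternatives. Groups of 3 libraries are too small for the outlier test used on larger groups.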

How the results depend on the processing

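The fall of all 10 mRNAs in each mutant passed the test under all 19 alternatives. The count of mRNAs that differed between the alleles, 1, became 0 with a pseudocount of 0.5, no filter, equal totals, equal upper quartiles, the compared groups alone, no variance trend or the replicate block, and 2 with a filter of 10 or equal medians of CSR-1 class mRNAs. Leaving out 1 library gave 0 to 2. The count of 22G-RNA loci that passed was 7 in *tcer-1(tm1452)* animals and 8 in *tcer-1(glm27)* animals, and became 4 in both with a filter of 10 (fewer loci tested) or equal upper quartiles, and 5 and 4 with equal CSR-1 class totals. It was 8 and 9 with the compared groups alone or equal miRNA totals, and in *tcer-1(glm27)* animals 7 with no filter, equal totals or no variance trend. Between the alleles it was 2, and 1 with equal miRNA totals and 3 with no variance trend. Leaving out 1 library gave 5 to 8, 6 to 9 and 1 to 3. The cause was not tested.

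The replicate numbers did not pair the samples (correlations of same-numbered deviations from −0.0381 to 0.0751 for mRNA and from −0.537 to 0.387 for small RNAs). With the replicate block the count of mRNAs between the alleles was 0 in place of 1, that of 22G-RNA loci in *tcer-1(glm27)* animals 7 in place of 8, and the other counts were as before. Differences between the alleles near 0 changed sign. For mRNA, equal totals gave −0.0099 for *oma-1*, −0.0405 for *oma-2*, −0.0561 for *mex-5*, −0.0508 for *spn-4* and −0.0278 for *gld-1*. Equal upper quartiles gave −0.0203 for *oma-2*, −0.0359 for *mex-5*, −0.0306 for *spn-4* and −0.0076 for *gld-1*, and equal CSR-1 class medians −0.0157, −0.0313, −0.0261 and −0.0030. Leaving out 1 library gave −0.0078 to 0.1245 for *oma-1*, −0.0102 to 0.0913 for *oma-2*, −0.0302 to 0.0468 for *mex-5*, −0.0524 to 0.0610 for *mex-6*, −0.0200 to 0.0501 for *spn-4*, −0.0109 to 0.0534 for the *oma* log2 ratio and −0.0225 to 0.0510 for the *mex* log2 ratio. For 22G-RNAs it gave −0.0046 to 0.2609 for *mex-3* and −0.0466 to 0.1224 for *lin-41*, and *lin-41* was at −0.0226 with equal upper quartiles and −0.0087 with equal CSR-1 class totals. Against wildtype, equal upper quartiles gave 0.1364 for *pos-1* and 0.0671 for *gld-1* in *tcer-1(tm1452)* animals, and 0.0576 for *mex-5* and 0.0735 for *puf-5* in *tcer-1(glm27)* animals. Equal CSR-1 class totals gave 0.0939 for *pos-1* and 0.0180 for *gld-1* in *tcer-1(tm1452)* animals, and 0.0078 for *puf-5* in *tcer-1(glm27)* animals. Those scalings put the median of all small RNA features at −0.04 and 0.02, or −0.08 and −0.04, in place of −0.33 in both mutants.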
